A study of Mus musculus with 32 samples.

Results

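SJL/J hippocampus is described here through the 4 of 32 arrays whose titles carry that strain's name. It was set against the 28 arrays of 7 other inbred strains, each with 4 arrays, in the pairs SJL/J-129S1/SvImJ, SJL/J-A/J, SJL/J-BALB/cByJ, SJL/J-C3H/HeJ, SJL/J-C57BL/6J, SJL/J-DBA/2J and SJL/J-FVB/NJ. The mice received no treatment, and the labels give neither their sex nor their age. Hippocampal RNA of 6 mice was combined into a single pool for every strain. Labelled cRNA was prepared from it in 2 rounds, and each preparation was read on 2 Affymetrix U74Av2 arrays. A strain is therefore 1 pool, and the errors and p-values below measure the spread between preparations of a pool, not between animals. This spread was estimated jointly from the pools of all strains, so an error is not the spread of the SJL/J preparations alone.

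SJL/J is an inbred strain of Swiss origin, as is FVB/NJ. It is known for aggressive males, for susceptibility to autoimmune demyelination, and for inherited losses of coat colour, of photoreceptors and of the muscle membrane protein dysferlin. The hippocampus serves spatial and episodic memory, and its principal neurons are the granule cells of the dentate gyrus and the pyramidal cells of the CA fields. An expression array reads each transcript through a probe set, a group of short oligonucleotides, and whether the strains differ in sequence under these probes was not examined here.

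Values below are log2 of the array signal. A difference is the mean of the 2 SJL/J preparations minus the mean of the 7 other strain means, given with its standard error from limma, and a call is a Benjamini-Hochberg adjusted p under 0.05 over the 7453 probe sets with the brightest mean signals. The median array signal was 33.4 to 41.6 in SJL/J and 29.4 to 43.7 in the other strains. The log2 ratio of actin's 3' to its 5' probe set, a sign of RNA integrity, was 0.25 to 0.32 in SJL/J and -0.18 to 0.68 in the others. For Gapdh it was -0.52 to -0.26 in SJL/J and -0.48 to -0.02 in the others, so that 1 SJL/J array lay just below all 28. The hippocampal neuron markers were present in SJL/J. Its summed signal over 7 granule cell genes was 703.9 to 871.4, against 545.9 to 877.3 on the other arrays. Over 7 pyramidal cell genes it was 1529 to 2123.5, against 1516 to 2521.2. None of these granule or pyramidal cell genes was called, and 5660 named genes were tested in all. Over all tested probe sets the share called was 0.55%.

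SJL/J differed from the mean of the other strains at 41 probe sets, 0.55% of those tested, standing for 36 named genes. The imprinted gene Nnat was 3.63-fold lower and the lysosomal sialidase Neu1 2.38-fold lower. The mitochondrial enzyme Nnt was lower too, with a size that rests on a dim SJL/J signal. The nuclear phosphoprotein gene Anp32a was 2.27-fold higher on the dimmer of its probe sets, and the small RNA host gene Gas5 was 2.73-fold higher. Of the 41, 17 were higher in SJL/J (0.228%) and 24 lower (0.322%), and 19 reached 2-fold (0.255%), 6 of them higher and 13 lower. In 4 of the 41 (Nnt, Dcaf11, Pdxdc1 and Ccr6) the SJL/J mean was under 4.41, the log2 of the mean signal that a probe set needed for the test. These 4 entered it through the other strains, and whether their SJL/J signal lies above background is not known. The median difference over all tested probe sets was 0.01, with a median standard error of 0.21. Without adjustment, 407 probe sets (5.46%) had a p under 0.05. With the preparation number as a block in the model, 105 probe sets were called (1.41%), 48 higher and 57 lower, and the 41 were all among them. Without the first SJL/J preparation 9 were called and without the second 20, of which 9 and 18 belong to the 41.

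**Figure D1:**
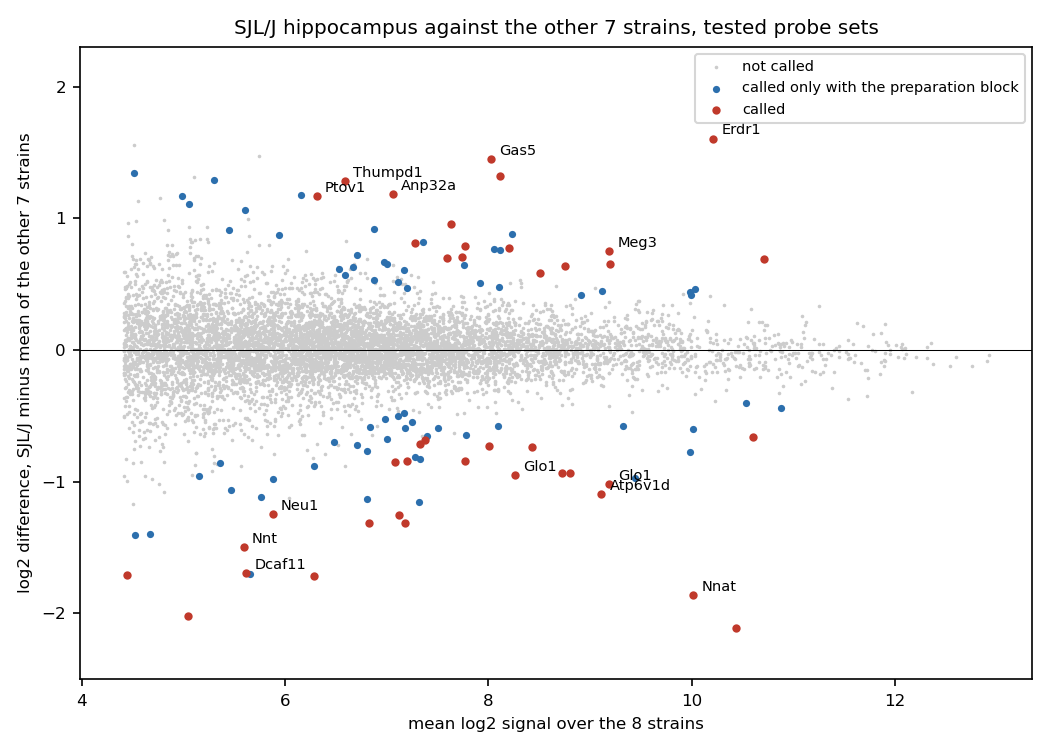
Log2 difference of SJL/J from the mean of the other 7 strain means (vertical) against the mean log2 signal over the 8 strains (horizontal) for the 7453 tested probe sets. Red points are the 41 called probe sets, blue points those called only with the preparation block, and grey points the rest; the largest called differences are below 0.

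Each of the 41 called probe sets had the same sign in both cRNA preparations and on all 4 days in the titles of SJL/J arrays. The call from these same arrays all but fixes this. The titles do not say what was done on a day, and not every strain had an array on each of the 4. Over all tested probe sets the sign was the same in both preparations for 58% and on all 4 days for 26.4%. SJL/J was the highest strain for 7 of the 17 higher ones and the lowest for 18 of the 24 lower ones. A call on the distance from the other strains favours such ranks, and their share over all tested probe sets was not counted. Both SJL/J preparations lay outside all 14 preparations of the other strains for 13 of the 41, 5 above and 8 below. Over all tested probe sets this held for 91 (1.22%), 54 above (0.725%) and 37 below (0.496%). The 2 shares cannot be weighed against each other, since the 41 were called on these same values. Among the 8 below, Dcaf11 and Nnt had SJL/J means under the limit and entered the test through the other strains. The preparations were not equally far from the others at every gene. The ubiquitin ligase receptor gene Dcaf11 differed by -2.37 in the first preparation and -1.01 in the second, while Nnt differed by -1.09 in the first and -1.90 in the second.

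**Figure D2:**
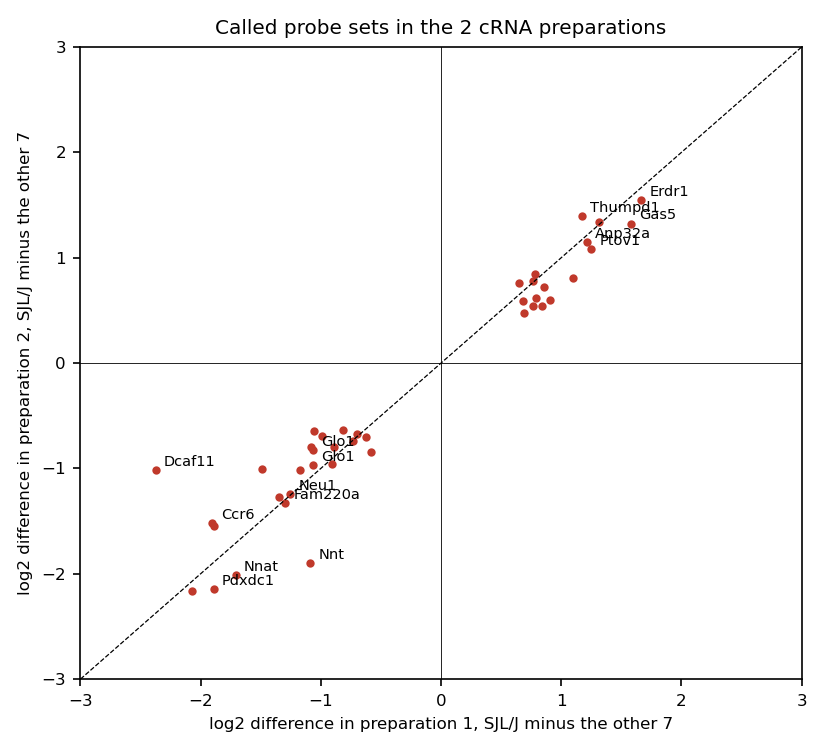
Log2 difference of SJL/J from the mean of the other 7 strains in cRNA preparation 1 (horizontal) and preparation 2 (vertical) for the 41 called probe sets, with a dashed line of equality. All 41 points lie in the quadrants of equal sign; Dcaf11, at -2.37 and -1.01, lies far from the line.

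The transcript that set SJL/J apart from every other strain was read by probe set 94767_at, which is unnamed in the annotation used here. Its log2 signal was 8.80, 8.53, 8.74 and 8.27 on the SJL/J arrays, against a lowest value of 10.39, a median of 10.71 and a highest value of 11.09 on the 28 others. The groups did not overlap, and all 4 SJL/J arrays lay far below the rest. SJL/J was 4.33-fold lower (-2.12 ± 0.11, adjusted p = 1.8e-07), and it was the single probe set of the 41 that differed from all 7 strains in pairwise contrasts. The smallest of the 7 differences, in the SJL/J-129S1/SvImJ pair, was -1.83 ± 0.15 (adjusted p = 9.7e-06).

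Nnat encodes neuronatin, a small membrane protein of the endoplasmic reticulum made from the paternal allele and abundant in the developing brain. SJL/J arrays gave 8.77, 8.73, 7.98 and 8.06, against 9.34, 10.33 and 11.14 as lowest, median and highest of the others. No SJL/J array reached the lowest of the other arrays. The difference passed against 6 strains, and against A/J it was -1.45 ± 0.31 (adjusted p = 0.057). Its call was lost without the second SJL/J preparation. The probe set has a suffix that marks possible reading of more than 1 transcript. Such a suffix is also carried by the called probe sets of Erdr1, Gas5 and Ank3, and by 96215_f_at, all described below. Blcap, the imprinted gene in whose intron Nnat lies, differed by 0.14 ± 0.16 and was not called. In bulk RNA, fewer cells of a type and less RNA per cell cannot be told apart.

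Neu1 encodes the sialidase that removes sialic acid from glycoproteins in lysosomes. The SJL/J arrays gave 4.22, 5.15, 4.94 and 4.83, and the other arrays ran from 5.39 through a median of 6.0 to 6.51. All SJL/J arrays were below all others. The difference was -1.25 ± 0.19 (adjusted p = 0.0063), past the test against every strain but A/J, where it was -0.95 ± 0.25 (adjusted p = 0.19). The other strains lay close together, with means from 5.74 in A/J to 6.19 in C57BL/6J. The size depends on the scale: with 64 added to each signal before log2 the difference was -0.50 (adjusted p = 0.019). The call was lost without either SJL/J preparation.

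Nnt encodes the inner-membrane transhydrogenase that makes mitochondrial NADPH, and C57BL/6J is known to carry a deletion within it. SJL/J arrays gave 3.96, 5.21, 3.60 and 4.36, against 4.11, 5.77 and 6.44 on the others. Here single arrays overlapped, although both preparation means of SJL/J were the lowest. The strain mean was 4.28 in SJL/J, 5.16 in C3H/HeJ and 5.33 in C57BL/6J, and the other strains were between 5.74 and 6.27. The difference of -1.49 ± 0.22 (adjusted p = 0.0063) passed against 5 strains but not against C3H/HeJ (-0.88 ± 0.30, adjusted p = 0.45) or C57BL/6J. Where this probe set lies relative to the C57BL/6J deletion was not analysed here. The SJL/J mean lay under the limit of 4.41, so the size of the difference depends on the scale. With 64 added to each signal the difference was -0.51 (adjusted p = 0.013). The call was lost without SJL/J array 1 and without the second SJL/J preparation.

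Dcaf11, a substrate receptor of the CUL4 ubiquitin ligase, had 4.06, 2.56, 4.66 and 5.24 in SJL/J and 5.0, 5.94 and 6.37 as lowest, median and highest elsewhere. A single SJL/J array reached into the range of the others. The difference was -1.69 ± 0.32 (adjusted p = 0.032), and SJL/J had the widest spread of these genes, with a standard deviation of 1.2 between its 2 preparations. The call was lost in 8 of 52 other settings, among them the omission of SJL/J array 3, or of array 2 of the other strain of the SJL/J-129S1/SvImJ pair, with adjusted p between 2.2e-05 and 1.0 over all of them. Dcaf11 passed against BALB/cByJ alone among the pairwise contrasts. Its SJL/J mean of 4.13 lay under the limit of 4.41, and the difference ran from -2.51 to -0.52 over the settings.

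The ribosomal protein gene Rpl13a had 6.23, 6.41, 6.75 and 6.45 in SJL/J, against 6.69, 7.26 and 7.80 in the others. A single SJL/J array lay within the range of the others. The difference was -0.84 ± 0.16 (adjusted p = 0.025), and the call was lost without SJL/J array 4, without C57BL/6J or without DBA/2J. Tesk1, a kinase that phosphorylates the actin-severing protein cofilin, was chosen after its values were seen. Its SJL/J arrays gave 6.61, 6.83, 6.89 and 6.76, all below the 7.08, 7.49 and 7.69 of the others. This small difference of -0.69 ± 0.12 (adjusted p = 0.013) came with little spread among the other strains, whose means ran from 7.30 to 7.57.

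**Figure D3:**
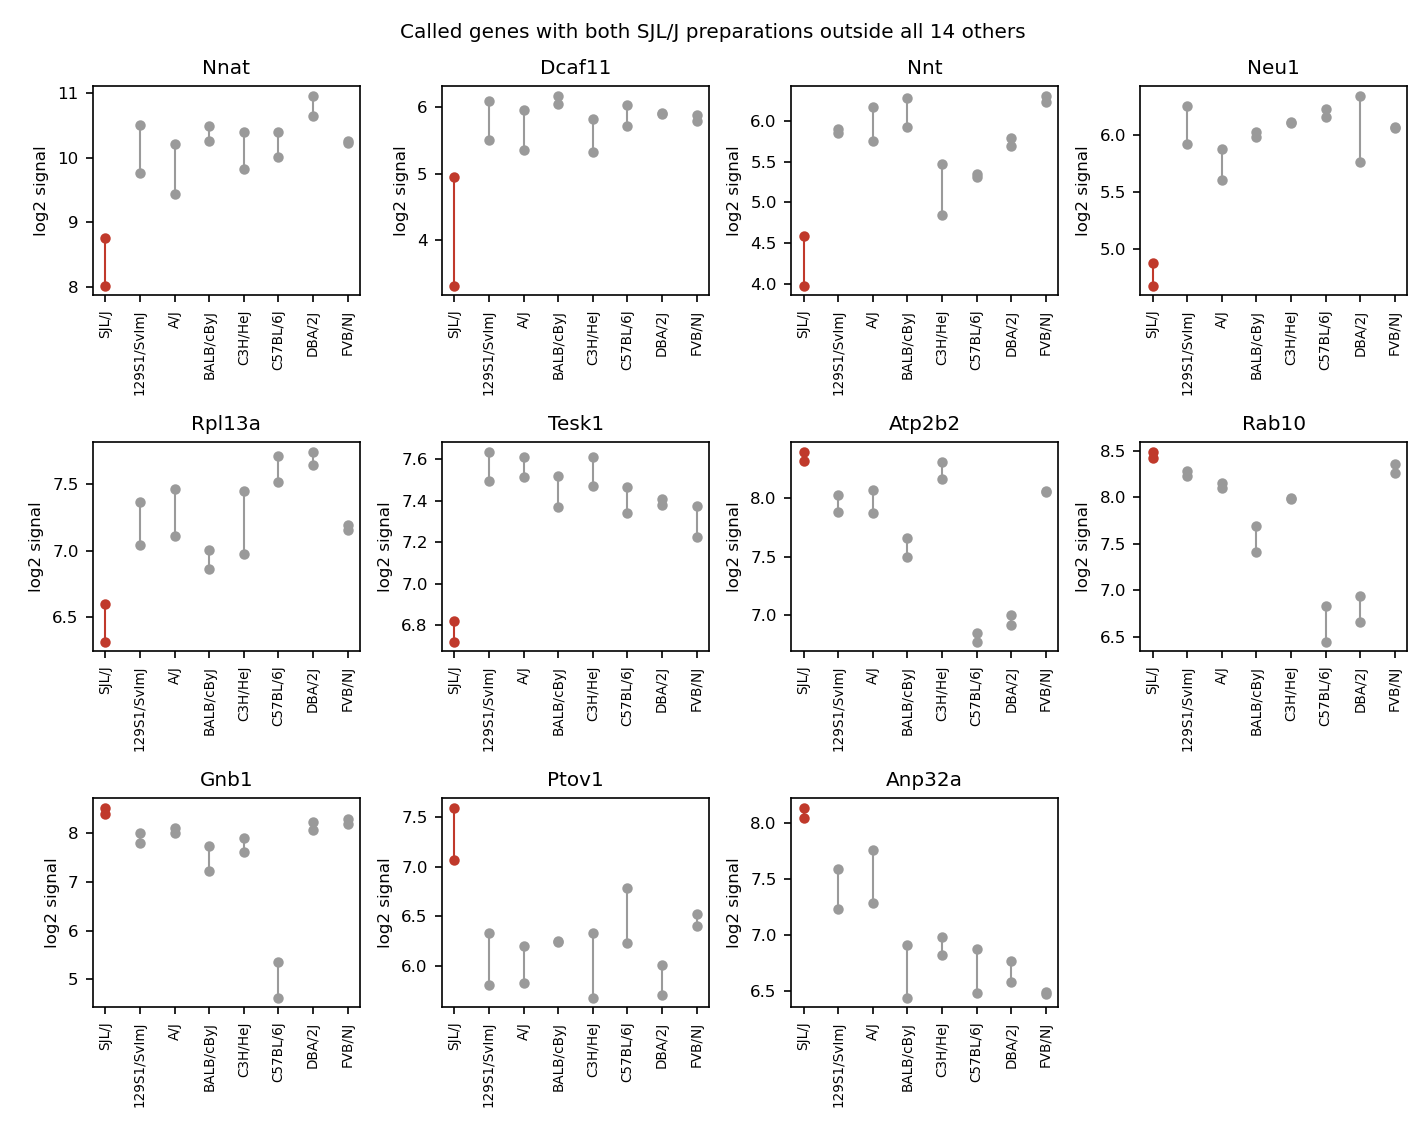
Log2 signal by strain for the 11 named called genes whose 2 SJL/J preparations lay outside all 14 preparations of the other strains. Points are cRNA preparations (means of 2 arrays) joined by a line, SJL/J in red at the left of each panel; in Gnb1 the C57BL/6J points lie far below all others.

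Anp32a was among the genes for which both SJL/J preparations lay above all others. It encodes a nuclear protein that inhibits protein phosphatase 2A. The SJL/J arrays gave 7.98, 8.11, 7.98 and 8.29, against 6.16, 6.81 and 7.76 on the others, with no overlap. The difference of 1.18 ± 0.17 (adjusted p = 0.0049) passed against 5 strains. Against A/J it was 0.57 ± 0.23 (adjusted p = 0.82), and the SJL/J-129S1/SvImJ pair, with means of 8.09 and 7.41, did not pass either. The other probe set of Anp32a, with a brighter signal, differed by 0.15 ± 0.12 and was not called.

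Ptov1, named for its overexpression in prostate tumours, had 7.48, 7.71, 7.02 and 7.11 in SJL/J and 5.48, 6.21 and 6.96 in the others. The groups did not overlap. The difference was 1.16 ± 0.22 (adjusted p = 0.032), but its other probe set, with a brighter signal, differed by -0.12 ± 0.20. That second value was 0.18 without the second SJL/J preparation. The call was lost in 10 of 53 other settings, with adjusted p from 5.1e-08 to 1.0. These included array centring, quantile normalization, the omission of A/J or DBA/2J, and the omission of C3H/HeJ array 2, C57BL/6J array 1 or FVB/NJ array 2.

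Atp2b2 encodes the plasma membrane calcium pump of synapses and hair cells, and Rab10 a small GTPase of membrane traffic. Atp2b2 arrays gave 8.57, 8.06, 8.37 and 8.42 in SJL/J, against 6.60, 7.88 and 8.44 elsewhere. Rab10 gave 8.58, 8.40, 8.35 and 8.50 in SJL/J, against 6.39, 7.98 and 8.38. For Atp2b2 every SJL/J array but that at 8.57 lay within the range of the others, and for Rab10 only that at 8.35 did. Atp2b2 differed by 0.70 ± 0.11 (adjusted p = 0.0082) and Rab10 by 0.79 ± 0.13 (adjusted p = 0.0096), each past the test against BALB/cByJ, C57BL/6J and DBA/2J. C57BL/6J and DBA/2J were far below the rest, at 6.81 and 6.96 for Atp2b2 and 6.64 and 6.80 for Rab10. Omitting DBA/2J ended both calls, and omitting C57BL/6J or SJL/J array 1 ended that of Atp2b2. The second Rab10 probe set differed by 0.30 ± 0.11 and was not called.

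Gnb1 encodes a beta subunit of heterotrimeric G proteins. Its SJL/J arrays gave 8.54, 8.51, 8.46 and 8.33, against 4.26, 7.93 and 8.43 elsewhere, so that a single SJL/J array lay within the range of the others. C57BL/6J, with a mean of 4.99, was the strain from which SJL/J differed in the pairwise contrasts. Against FVB/NJ the difference was 0.22 ± 0.23 (adjusted p = 1.0). The call (0.95 ± 0.18, adjusted p = 0.024) was lost without C57BL/6J, without C57BL/6J array 2 or without BALB/cByJ array 4. Both further Gnb1 probe sets also had C57BL/6J lowest and differed by 0.41 ± 0.14 and 0.31 ± 0.11. Neither was called, but with the preparation block the first of them passed (adjusted p = 0.044, and from 4.8e-05 to 1.0 over the settings tried).

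The pairwise contrasts differed in how many strains SJL/J passed against. Of the 41 probe sets, 3 differed in the same direction from 1 strain, 5 from 2, 12 from 3, 8 from 4, 7 from 5, 5 from 6 and 1 from 7. A contrast that did not pass does not show an equal level: the 3 with a single passing contrast were Dcaf11, Ptov1 and Gnb1, whose SJL/J preparations lay outside all 14 others. These contrasts share the SJL/J arrays and are given side by side.

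**Figure D4:**
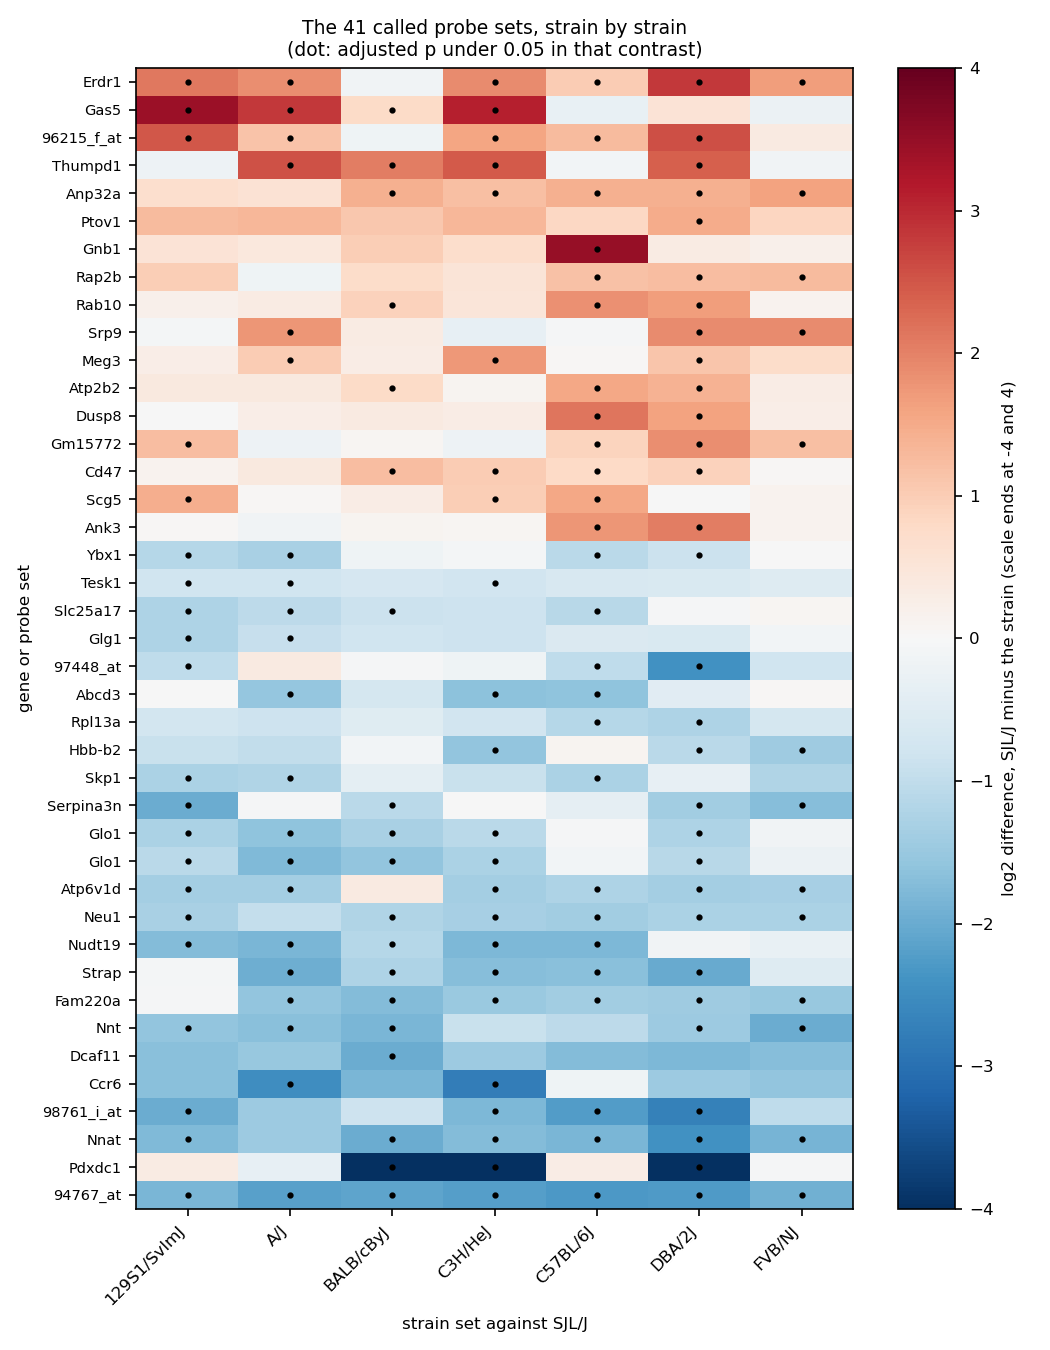
Log2 difference of SJL/J from each other strain (columns) for the 41 called probe sets (rows, ordered by their difference from the mean of the other 7 strains). Red is higher and blue lower in SJL/J, and a dot marks an adjusted p under 0.05; probe set 94767_at, in the bottom row, has a dot in all 7 columns.

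Several genes were low in SJL/J and in 1 or 2 further strains. Atp6v1d, a subunit of the proton pump that acidifies lysosomes and synaptic vesicles, gave 8.13, 7.91, 8.43 and 8.14 in SJL/J, against 7.54, 9.48 and 9.67 elsewhere. BALB/cByJ was lower still, at a mean of 7.78, and the 6 other strains lay between 9.39 and 9.52. The difference of -1.10 ± 0.11 (adjusted p = 0.00018) passed in all 53 other settings. Fam220a averaged 5.67 and 5.73 in the SJL/J-129S1/SvImJ pair, with the remaining strains from 7.08 to 7.41. It was 2.48-fold lower than the mean of the others (adjusted p = 0.0016), while its second, dimmer probe set differed by -0.11 ± 0.47.

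Strap, which codes for a WD-repeat protein of the SMN complex and of TGF-beta receptor signalling, averaged 6.03 and 6.12 in the SJL/J-129S1/SvImJ pair, 6.53 in FVB/NJ, and from 7.28 to 8.05 in the other 5. Nudt19, a peroxisomal coenzyme A hydrolase, averaged 6.02 in SJL/J, 6.16 in DBA/2J and 6.32 in FVB/NJ, and from 7.17 to 7.86 in the other 5. Both thus had a low and a high set of strains with SJL/J in the low one. Strap differed by -1.31 ± 0.20 (adjusted p = 0.007) and Nudt19 by -1.25 ± 0.19 (adjusted p = 0.0071). Each passed against all 5 high strains.

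Glo1, the glyoxalase that detoxifies methylglyoxal, was read by 2 called probe sets. The brighter gave 8.21, 8.20, 8.46 and 8.31 in SJL/J, against 8.19, 9.48 and 10.12 elsewhere. C57BL/6J (8.42) and FVB/NJ (8.53) had the means nearest to SJL/J (8.30), and the other 5 strains were between 9.39 and 10.06. Its difference was -1.02 ± 0.11 (adjusted p = 0.00023). The dimmer probe set had -0.95 ± 0.16 (adjusted p = 0.012), a call lost without A/J or without FVB/NJ array 2.

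Serpina3n, a protease inhibitor induced in reactive astrocytes, gave 7.77, 7.95, 8.21 and 7.99 in SJL/J, against 7.57, 9.04 and 10.28. C3H/HeJ (7.99) and A/J (8.02) had means near SJL/J (7.98). The SJL/J-129S1/SvImJ pair was the widest apart, with means of 7.98 and 9.96. The difference was -0.94 ± 0.13 (adjusted p = 0.0028). Of 10 tested astrocyte markers none passed, beside 0.55% of all tested probe sets. Gfap differed by 0.26 ± 0.17 and 0.16 ± 0.18 on its 2 probe sets.

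Skp1, a core subunit of SCF ubiquitin ligases, gave 7.79, 7.72, 8.07 and 8.06 in SJL/J, against 7.99, 8.95 and 9.46. The difference was -0.93 ± 0.19 (adjusted p = 0.041), with DBA/2J nearest, at 8.23, and the call was lost in 12 of 53 settings, where adjusted p ranged from 5.1e-08 to 0.98. Hbb-b2, a minor adult beta globin, gave 6.02, 6.10, 6.80 and 6.44 in SJL/J, against 6.09, 7.35 and 8.13. C57BL/6J (6.23) and BALB/cByJ (6.44) were as low, and the difference was -0.85 ± 0.16 (adjusted p = 0.032). The alpha globin gene Hba-a1, the other erythroid marker tested, differed by -0.08 ± 0.12. The summed erythroid signal was 755.2 to 873.3 in SJL/J and 697.1 to 1694.2 elsewhere. The part of blood content in the Hbb-b2 result was not tested. Its call was lost without A/J, C3H/HeJ, DBA/2J or FVB/NJ, and also without SJL/J array 4, BALB/cByJ array 2 or FVB/NJ array 2.

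Pdxdc1, which encodes a pyridoxal-dependent decarboxylase-like protein, had 3 tested probe sets that did not run the same way. On the called probe set the SJL/J-129S1/SvImJ pair averaged 3.28 and 2.94, and A/J, C57BL/6J and FVB/NJ lay between 3.0 and 3.61. BALB/cByJ, C3H/HeJ and DBA/2J lay between 7.88 and 8.22. SJL/J was thus dim along with 4 strains, all 5 of them under the 4.41 of the limit, and the probe set entered the test through the 3 bright strains. The call (adjusted p = 0.00038) and the pairwise contrasts that passed were against a dim signal not known to lie above background, so no size is given for it. The other probe sets differed by 0.87 ± 0.20 and 1.47 ± 0.57, higher in SJL/J and not called; with the preparation block the first of these passed (adjusted p = 0.025, from 0.025 to 1.0 over the settings tried). The chemokine receptor gene Ccr6 averaged 2.95 in SJL/J and 3.12 in C57BL/6J, both well under the limit, and from 4.40 to 5.71 in the other 6 strains. Its size is left out for the same reason, and its call (adjusted p = 0.043) was lost in 24 of 52 settings, with adjusted p up to 0.76.

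Among the higher genes, too, single strains stood beside SJL/J. Erdr1, which codes for a secreted factor named for erythroid differentiation, gave 11.64, 11.80, 11.47 and 11.54 in SJL/J, against 8.57, 9.78 and 11.94. BALB/cByJ was at the same level, with a mean of 11.76, C57BL/6J lay between at 10.60, and the other 5 were from 8.79 to 9.96. The difference was 1.60 ± 0.11 (adjusted p = 2.1e-06). Its second probe set, with 0.58 ± 0.41, was not called and stood at -0.12 without the first SJL/J preparation. The unnamed probe set 96215_f_at also had BALB/cByJ (9.44) beside SJL/J (9.27), and differed by 1.32 ± 0.13 (adjusted p = 0.00015).

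Gas5, a transcript that carries small nucleolar RNAs in its introns, gave 9.31, 9.44, 9.27 and 9.16 in SJL/J, against 5.49, 8.45 and 9.63. C57BL/6J (9.59) and FVB/NJ (9.53) were as high, and C3H/HeJ (6.19) and A/J (6.45) were far lower. The SJL/J-129S1/SvImJ pair was the widest apart, at 9.29 and 5.87. The difference was 1.45 ± 0.12 (adjusted p = 3.2e-05). Thumpd1, a partner of the enzyme that acetylates transfer RNA, averaged 7.71 and 7.92 in the SJL/J-129S1/SvImJ pair, 7.83 in C57BL/6J and 7.85 in FVB/NJ. The other 4 strains lay between 5.15 and 5.67, and SJL/J was 2.43-fold higher than the mean of all 7 (adjusted p = 0.005).

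Srp9, of the signal recognition particle, averaged 8.88 in SJL/J and from 6.97 to 7.12 in A/J, DBA/2J and FVB/NJ, with the other 4 from 8.56 to 9.21. The imprinted non-coding RNA Meg3, made from the maternal allele, gave 9.99, 9.94, 9.74 and 9.70 in SJL/J, against 7.98, 9.15 and 9.93. C57BL/6J (9.79) was as high and C3H/HeJ (8.10) the lowest, and the difference was 0.75 ± 0.12 (adjusted p = 0.0078). The brighter Meg3 probe set differed by 0.34 ± 0.12 and was not called. Cd47, the surface signal that restrains phagocytosis, differed by 0.65 ± 0.11 (adjusted p = 0.013) with FVB/NJ (9.72) beside SJL/J (9.76). Its second probe set had 0.30 ± 0.19, which became -0.04 without the first SJL/J preparation.

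Dusp8 and Ank3 were low in C57BL/6J and DBA/2J. Dusp8, a phosphatase of MAP kinases, averaged 8.21 in SJL/J, against 6.08 in C57BL/6J and 6.59 in DBA/2J, with the other 5 from 7.86 to 8.21. Ank3, the ankyrin of the axon initial segment, was chosen after its values were seen. It averaged 9.01 in SJL/J, against 7.23 in C57BL/6J and 6.97 in DBA/2J, with the other 5 from 8.88 to 9.14. Both calls were close to the threshold, at adjusted p = 0.038 for Dusp8 and 0.044 for Ank3. Rap2b, a Ras-related GTPase (adjusted p = 0.046), averaged 7.99 in SJL/J, against 8.17 in A/J and from 6.73 to 6.81 in FVB/NJ, DBA/2J and C57BL/6J, with the remaining 3 from 7.01 to 7.49. Scg5, the chaperone of prohormone convertase 2 (adjusted p = 0.039), averaged 9.30 and 7.86 in the SJL/J-129S1/SvImJ pair. C57BL/6J (7.75) was the lowest for Scg5, C3H/HeJ had 8.32, and the other 4 lay between 8.99 and 9.33, with DBA/2J the highest of all. Over the 53 settings the call of Dusp8 was lost in 15 and that of Scg5 in 16, while Rap2b lost its call in 24, with adjusted p up to 0.96 among these genes. The other Rap2b probe set differed by 0.02 ± 0.19.

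Set against each strain in turn, SJL/J was nearest to FVB/NJ, the other strain of Swiss origin, by count of differences. At an adjusted p under 0.05 and at least 2-fold, SJL/J differed from FVB/NJ at 21 probe sets (0.282%), and the SJL/J-129S1/SvImJ pair differed at 36 (0.483%). The count was 41 against A/J (0.55%), 48 against C3H/HeJ (0.644%), 58 against BALB/cByJ (0.778%), 81 against DBA/2J (1.09%) and 87 against C57BL/6J (1.17%). With the preparation block the counts were 38 for FVB/NJ, 55 for the SJL/J-129S1/SvImJ pair, 72 for A/J, 74 for C3H/HeJ, 190 for BALB/cByJ, 117 for DBA/2J and 140 for C57BL/6J, so BALB/cByJ then had the highest. BALB/cByJ arrays 3 and 4 and FVB/NJ array 4 carry days that no SJL/J array has. The part of this in the counts was not tested. More probe sets were higher than lower in SJL/J against DBA/2J, 53 and 28, and against C57BL/6J, 53 and 34. Of the 41 probe sets called against the mean of the strains, 30 passed against DBA/2J, 26 against C57BL/6J and 13 against FVB/NJ. Without the fold requirement, 1.53% of all tested probe sets passed against DBA/2J, 1.49% against C57BL/6J, 1.34% against BALB/cByJ, 0.792% against C3H/HeJ, 0.59% against A/J and 0.335% against FVB/NJ, and 0.577% in the SJL/J-129S1/SvImJ pair.

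**Figure D5:**
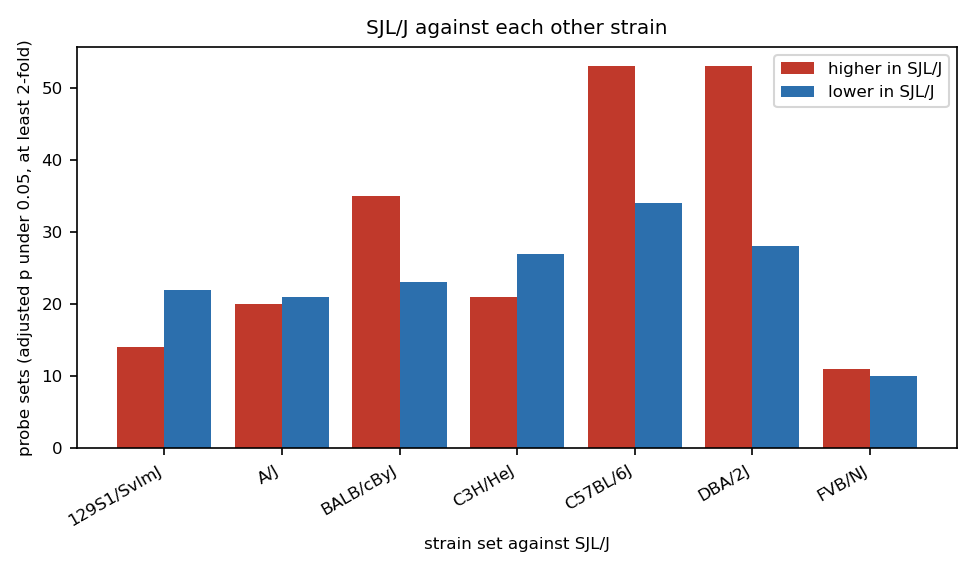
Number of probe sets at least 2-fold different with an adjusted p under 0.05 (vertical) between SJL/J and each other strain (horizontal), red for higher and blue for lower in SJL/J. FVB/NJ has the lowest counts, 11 higher and 10 lower, and C57BL/6J and DBA/2J the most higher in SJL/J, 53 each.

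A further 64 probe sets were called only with the preparation block, 13 of them at least 2-fold different. Cfl2, the muscle form of cofilin, gave 3.89, 3.39, 4.82 and 4.56 in SJL/J, against 4.52, 6.03 and 6.74. Its SJL/J mean of 4.17 was under the limit of 4.41, so it entered the test through the other strains. The size of its difference, from -2.23 to -0.59 over the settings, rests on a dim signal. Both SJL/J preparations were below the 14 others, and the difference was -1.70 ± 0.37 (adjusted p = 0.063, 0.00032 with the block, and from 6.7e-07 to 1.0 over the settings tried). Aldh1a1, which makes retinoic acid, gave 5.46, 5.57, 6.05 and 6.17, against 4.66, 7.29 and 7.97, with BALB/cByJ lower at 5.16. Its difference was -1.13 ± 0.25 (adjusted p = 0.063, 0.0004 with the block, and from 1.6e-07 to 1.0 over the settings).

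Others of these genes were dim too, or nearer to single strains. Tfb2m, a mitochondrial transcription factor, differed by -1.40 ± 0.42 and the integrin gene Itga3 by -1.41 ± 0.37, both with their SJL/J preparations below the 14 others. Snhg11, a small nucleolar RNA host, differed by -1.16 ± 0.26, with DBA/2J (6.22) as low as SJL/J (6.30). Acaa1b, a peroxisomal thiolase, differed by 1.29 ± 0.29, with C57BL/6J (6.34) as high as SJL/J (6.43). Fv1, a restriction factor for murine leukaemia viruses, differed by 1.17 ± 0.28. Lmbr1l (1.34 ± 0.35), 4833420G17Rik (1.11 ± 0.29) and the zinc finger gene Zfp612 (1.06 ± 0.34) were also higher. The adjusted p of these 8 was 0.066 to 0.43 without the block and 0.0039 to 0.038 with it. Of 52 other settings, Itga3 and Lmbr1l passed in 2, Tfb2m, Zfp612 and 4833420G17Rik in 4, Fv1 in 5 and Acaa1b in 11. Snhg11 passed in 7 of 53. Over these settings the difference ran from -2.17 to -0.28 for Itga3 and from -1.56 to -0.34 for Tfb2m.

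The gene lists put these differences in context, each gene read by its brightest probe set. Of 17 imprinted genes 1 was lower, Nnat, and none higher, beside 0.322% lower and 0.228% higher over all tested probe sets. On any probe set 2 of the 17 were called, since Meg3 was higher on its dimmer one. The median difference was -0.05, where the median over all probe sets was 0.01. Ndn (-0.04 ± 0.10) and Peg3 (-0.10 ± 0.15) were among those not called. Of 29 genes for mitochondrial NADPH, glutathione and antioxidant defence, Nnt and Glo1 were lower and none was higher, with a median of -0.04, again beside 0.322% lower and 0.228% higher over all tested probe sets. Nnt, with an SJL/J mean under the limit on signal, entered the test through the other strains. None of 48 respiratory chain genes was called (median -0.07), where 0.55% of all tested probe sets were. At that share no call is the usual outcome for a list this short, and it is not read as sameness.

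The synaptic lists held no call by the main test on the brightest probe set of a gene, and 1, that of Gnb1, on a dimmer one. Over all tested probe sets the share was 0.55%. None of 26 genes for plasticity kinases, calmodulin binding and neurotrophins passed, with a median of 0.02. Nrgn, the calmodulin-binding neurogranin of dendritic spines, gave 9.64, 9.73, 9.18 and 9.41 in SJL/J, against 9.36, 10.15 and 10.75, with DBA/2J (9.51) at about the same mean. It reached -0.60 ± 0.13 with adjusted p = 0.054, and 0.0093 with the preparation block, within a range of 0.0024 to 0.67 over the settings. Both 10 glutamate receptor genes and 10 GABA genes had a median of 0.19, with none called; Grin2b differed by 0.65 ± 0.19 (adjusted p = 0.34) and the vesicular GABA transporter Slc32a1 by 0.49 ± 0.17 (adjusted p = 0.54). None of 20 vesicle release genes (median -0.01), 18 G protein subunit genes (median 0.13) and 19 genes for monoamines, acetylcholine and social behaviour (median 0.02) passed on its brightest probe set.

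Immune and glial lists had no call by the main test either, beside 0.55% of all tested probe sets. Of 13 MHC and antigen presentation genes none passed, with a median of 0.04. H2-D1, a class I molecule, differed by -0.77 ± 0.16 on its dimmer probe set (adjusted p = 0.051, 0.0085 with the block, and from 0.00079 to 0.98 over the settings), and SJL/J (6.14) was there beside C3H/HeJ (6.26). H2-Eb1 differed by 1.15 ± 0.44 (adjusted p = 0.68). The 9 microglia and complement genes had a median of -0.17, and their summed signal was 1324.9 to 1391.5 in SJL/J, against 1301 to 1839.7 elsewhere. The 9 myelin genes had a median of 0.11 and the 5 interferon-stimulated genes one of -0.07.

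Markers of neighbouring tissue were measured beside these results. None of 5 choroid plexus genes, 11 vascular and meningeal genes, 12 interneuron genes, 2 striatal genes or 9 thalamic and hypothalamic genes was called by the main test on its brightest probe set. With only 0.55% called in the whole test, lists this short would usually hold no call. Their lack of calls is therefore not read as absence of neighbouring tissue. The thalamic marker Prkcd gave 7.52, 7.41, 7.55 and 7.79 in SJL/J, against 6.46, 7.13 and 7.51, on a dimmer probe set. Its difference was 0.52 ± 0.13 (adjusted p = 0.15, 0.036 with the block, and from 0.0059 to 0.79 over the settings). Of genes in which SJL/J carries known alleles, Oca2 was bright enough to be tested. Its SJL/J arrays gave 4.42, 5.25, 4.62 and 4.75, within the 3.09 to 5.62 of the others, and it differed by 0.33 ± 0.37.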

How the data were processed

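The authors deposited an intensity for each of 12488 probe sets on 32 arrays, on a linear scale. The submitters' processing notes name MAS5. Its version, any detection calls and the target of scaling are not given in the sources used. The trimmed mean (2% off each end) of the deposited intensity was 100.05 to 100.07 on every array, so arrays were taken as scaled. A dim signal is no evidence of a transcript. The number of arrays limits the precision.

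Strain, replicate and day came from the titles, and the preparation from the series design. Without the 66 control probe sets, signals were floored at 1 and brought to log2, and the 2 arrays of a preparation were averaged. The brightest 60% of probe sets by mean (7453, from a signal of 21.3) were fitted with 8 strain means in limma 3.58.1 (R 4.3.3; eBayes with a trend, 8 residual degrees of freedom), and p-values were adjusted by Benjamini-Hochberg over all of them. Symbols came from the platform annotation (1193 probe sets without entry and 396 with several symbols stay unnamed) and matched RefSeq of GRCm38.p6. That assembly served for names and neighbours only.

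The named genes were up to 15 highest and 15 lowest called genes, up to 10 genes of at least 2-fold called only with the block, list members past either test (up to 4 a list), and all tested probe sets of named genes. Others are said to be chosen after their values were seen. Blcap, Ndn, Peg3, Gfap, Hba-a1, Grin2b, Slc32a1 and H2-Eb1 also fall outside this rule and were chosen with their values known. The members, lists and tests were chosen with earlier results of these data known. The series design ties a number to a preparation round. The difference between rounds correlated between strains (r from 0.109 to 0.557, median 0.385, over 28 pairs of strains), and 0.242 to 0.536 with SJL/J. On simulated data the fit recovered 62% of 100 probe sets changed by 1 on the log2 scale and 98% of 100 changed by 2, and it called 16 unchanged probe sets. The simulated strains were otherwise equal and shared no difference between rounds, so these rates need not hold for the data. Alternatives covered the block, arrays as units, scaling, filter, offset, variance trend and the omission of each array, SJL/J preparation or strain. A further one, a regrouping of FVB/NJ array 2, was chosen after seeing the data. The series design puts this array in preparation 1, but its title carries a day of second-preparation arrays of other strains. Whether FVB/NJ preparation 1 thus mixes rounds is not known.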

Additional observations from a re-analysis of the deposited data

Results flagged for a closer look

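On each of 58 named probe sets, an SJL/J array was checked for standing apart from the other 3, a check that chance passes in about 1 of 20 groups. A single array did. Cd47 on the called probe set had 10.1 on SJL/J array 1, while the other 3 arrays lay between 9.646 and 9.662. The gap was 0.964 of the whole range, past Dixon's critical value for 4 arrays. Without that array the call of Cd47 remained.

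Below the limit on mean signal, 4 probe sets that the report leaves out passed the test when all 12422 were fitted. Azi2 (94006_at), an adaptor of innate immune kinase signalling, was lower in SJL/J by a log2 difference of -3.1 (adjusted p = 0.0053 by limma), with preparations at 2.07 and 0.493 in SJL/J, against 3.21 to 5.17 in the others. Sspn (102378_at), of the dystrophin complex, differed by -2.55 (adjusted p = 0.013). SJL/J had 1.68 and 1.28, against 1.32 to 5.45 in the others, which therefore overlapped. The probe sets 103671_at and 94122_at, without a single symbol, differed by -2.23 (adjusted p = 0.013) and 2.41 (adjusted p = 0.018). All 4 were singled out after their values were seen, and the deposited values do not say whether such dim signals lie above background.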

How the results depend on the processing

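Against 41 calls, the comparison with the mean of the other strains gave 105 with the preparation number as replicate block, 128 with single arrays as units, 70 with the preparation as a random block, 252 with the day as a term, 24 with no trend in the variance, and 90 with the block after FVB/NJ array 2 was counted with its arrays 3 and 4. It gave 9 without SJL/J preparation 1 and 20 without preparation 2. The cause of these shifts was not tested, except that the last pair rests on a single SJL/J preparation, assumed to vary like those of the other strains. Leaving out single arrays gave 30 (without FVB/NJ array 2) to 48 calls, and leaving out another strain 30 (DBA/2J) to 50 (C3H/HeJ). Calls higher in SJL/J were 41.5% of all, but 30% with arrays centred on their median, 29.2% with no trend, 25% without SJL/J preparation 2, and 51.6% (130 higher, 122 lower) with the day. The median count over the 7 pairs was 48, and 74 with the block, 83 with the day, 22 with an offset of 64, 26 without SJL/J preparation 1, and 39 to 52 without single arrays. List members called were 4, and 11 with single arrays, 19 with the day, 2 without SJL/J preparation 2, and 3 to 5 without single arrays.

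Of 31 named called probe sets, none changed sign in the 53 settings, 5 passed in all of them and 13 in all that kept both SJL/J preparations. With 64 added to each signal, the difference of 12 of the 31 shrank by over 1.5 times, and 30 stayed called. Sign changes fell on uncalled second probe sets. Fam220a, at -0.11, lay between -0.33 and 0.11 without single arrays, with 0.01 without SJL/J array 4, and at 0.62 without SJL/J preparation 1. Rap2b, at 0.02, lay between -0.12 and 0.16 without single arrays. It was -0.0092 without SJL/J array 2, -0.0050 without BALB/cByJ array 3, -0.018 without C3H/HeJ array 3 and -0.0018 without C57BL/6J array 1. It was -0.048 without SJL/J preparation 1, -0.030 without the other strain of the SJL/J-129S1/SvImJ pair and -0.00088 without BALB/cByJ. Without SJL/J preparation 1, Cd47 went to -0.045 and Erdr1 to -0.12, and without preparation 2 Ptov1 went to 0.18. The preparation block ended no call of the main fit.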

Other observations

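Genes of related organelles and other roles were also among the calls, each chosen after its values were seen. Abcd3, a peroxisomal fatty acid transporter, averaged 7.03 and 7.04 in the SJL/J-129S1/SvImJ pair, 6.98 in FVB/NJ, 7.48 in DBA/2J, 7.73 in BALB/cByJ, and 8.57 to 8.68 in A/J, C57BL/6J and C3H/HeJ. It differed by -0.84 ± 0.14 (limma, adjusted p = 0.0096). Slc25a17, a peroxisomal cofactor carrier, averaged 6.70 in SJL/J, 6.64 in FVB/NJ, 6.73 in DBA/2J and from 7.52 to 7.93 in the other 5 strains, and differed by -0.72 ± 0.15 (adjusted p = 0.043). Ybx1, an RNA-binding Y-box protein, averaged 10.02 in SJL/J, near FVB/NJ (10.03), C3H/HeJ (10.09) and BALB/cByJ (10.19), with the other 4 strains from 10.89 to 11.32. The Golgi glycoprotein gene Glg1 was lower by -0.73 ± 0.14 (adjusted p = 0.035), while its second probe set differed by 0.24 ± 0.10 and was not called.

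Some genes called with the block are close together in gene order, in the RefSeq table of GRCm38.p6. Between Nnat and Snhg11, both lower in SJL/J, stand 8 genes, between Nnt and 4833420G17Rik 1, between Ptov1 and Rpl13a 16, and between Agpat1 and Neu1 17. The members of the Nnt and Ptov1 pairs differed in opposite directions. Whether such spacing is more common than elsewhere was not tested.

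The log2 signal of the probe set for the sense-strand control was 6.95 and 7.27 on SJL/J arrays 1 and 2 and 5.27 and 5.49 on arrays 3 and 4, against 4.91 to 7.84 on the other 28. Arrays of the same SJL/J preparation correlated at r of 0.94 and 0.967 over probe sets, and arrays of different SJL/J preparations at a median of 0.936. SJL/J arrays and those of other strains correlated at a median of 0.927 (from 0.848 to 0.964).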
